A study of Mus musculus with 2 samples.

Results

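The genes described are the mucins and the Golgi transferases that build glycans on proteins and lipids. They were picked out by gene symbol, and the set was chosen with earlier results of these data known. All rows beginning with Muc plus a digit, Galnt, Fut plus a digit, St3gal, St6gal, St8sia, B3gnt, B3galt or B4galt were taken. This gave 80 of the 23562 genes in the table. The data were RNA sequencing values from mouse breast tumour cells, labelled as the cell line AS0574 in 2 forms. The first form was Rnf8-/-;Trp53Δ/Δ and its cells are called null here. The second was the Rnf8-complemented form of that genotype, called complemented, so by their labels both carried the Trp53 deletion and the Rnf8 mutation. Rnf8 is a ubiquitin ligase of the DNA break response, and p53, the product of Trp53, is a tumour suppressor. Each form was 1 library of 1 line, so there is no spread between replicates to set a difference against, and p-values are not given. Whether a form was 1 clone, and what drove the returned Rnf8, are not given in the labels used here.

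Mucins are large proteins of epithelial surfaces, some anchored in the membrane and some secreted as gel, whose serine- and threonine-rich stretches carry many O-glycans. A Galnt enzyme starts an O-glycan by adding N-acetylgalactosamine to serine or threonine. Galactosyltransferases (B3galt, B4galt) and N-acetylglucosaminyltransferases (B3gnt) lengthen the chains of O-glycans, N-glycans and glycolipids, and fucosyltransferases (Fut) and sialyltransferases (St3gal, St6gal, St6galnac, St8sia) cap or decorate them. Enzymes of a family overlap in what they act on, and mammary epithelium and its tumours are known for abundant mucin-type O-glycans.

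Counted reads came to 57263401 for null and 48607808 for complemented cells. Rnf8 stood at 10.5 RPKM (read counts divided by gene length and by total counted reads) in null and 596 RPKM in complemented cells. Trp53 had 1075 reads in null and 696 in complemented cells (6.15 RPKM in null against 4.69 RPKM in complemented cells); these are values of the whole gene, and no value of the deleted part alone is in the table, so they do not check that label. Of 11 listed epithelial markers all 11 were higher in null cells, with summed levels of 6512 RPKM in null and 1.49 RPKM in complemented cells, and Krt5 was at 0 reads in complemented cells. Of 11 mesenchymal markers 8 were lower and 0 higher, with summed levels of 382 RPKM in null and 1745 RPKM in complemented cells. Of 10 leukocyte markers in the table only Cd14 was higher (165 RPKM in null against 12.6 RPKM in complemented cells) and 9 lay below the filter, with Ptprc, the defining one, at 0 reads in null cells and 1 in complemented cells. The 7 endothelial markers had at most 32 reads in null and 51 in complemented cells. The part of these differences in the results below was not tested, and in bulk RNA fewer cells of a type and less RNA per cell cannot be told apart.

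A gene was called higher or lower where the difference in log2(RPKM + 1), null minus complemented, reached 1 or -1; this 2-fold rule is one of size and not a test. Only genes with a mean of at least 1 RPKM over the 2 libraries were called. Of the 80 members 38 passed that filter and 42 did not. Of the 38, 11 were higher in null cells and 10 lower, and 17 lay within 2-fold. These were 28.9% and 26.3% of the members past the filter, against 14.8% higher and 15.9% lower, 30.7% in all, of all 12609 genes past it. With TMM scaling the median log2 difference of all genes past the filter was 0.03 in place of -0.17. Under it 13 of 37 members past the filter were higher and 7 lower. These were 35.1% and 18.9%, against 17.3% higher and 12.3% lower of the 12600 genes past the filter. Of the 21 members called, 10 stood under 1 RPKM in one of the libraries, so they passed the filter through the other one; the same held for 1564 of the 3876 genes called in the table. The median log2 difference of the 38 was 0.02, beside -0.17 over all genes past the filter. Intervals given below are exact 95% limits on read counts and cover counting error only.

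**Figure D1:**
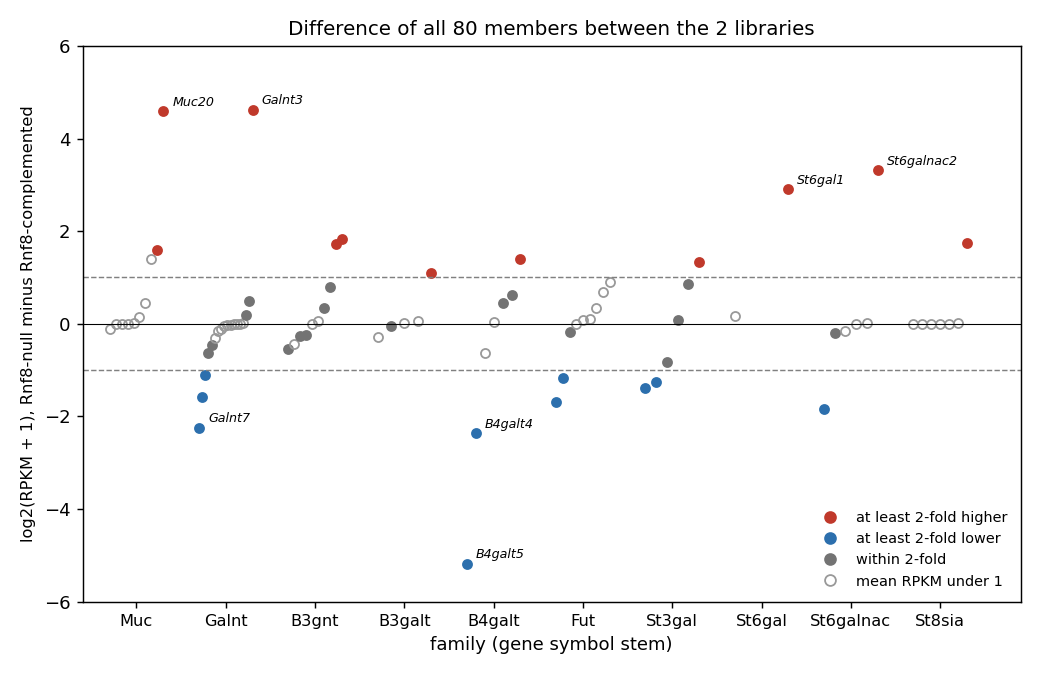
Difference in log2(RPKM + 1), null minus complemented, of each of the 80 members (points), grouped by family along the x axis, with dashed lines at the 2-fold rule and open points for the 42 members below the filter. Galnt3 and Muc20 lie highest, at 4.62 and 4.59, and B4galt5 lies lowest, at -5.18.

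The members at the ends of this range are Galnt3 and Muc20 at the top and B4galt5 and B4galt4 at the bottom, among called members with a single RefSeq start. Their promoters are shown as the start regions of the members farthest apart in level. Each is the 300 bases from 250 before to 50 after the RefSeq start on GRCm38.p6, read on the gene's strand. Capitals mark the E-box CAGGTG, which reads as CACCTG on the other strand and which Snai and Zeb repressors bind, and the GC box GGGCGG, which reads as CCGCCC on the other strand.
Galnt3, chr2:66124744-66125043, minus strand: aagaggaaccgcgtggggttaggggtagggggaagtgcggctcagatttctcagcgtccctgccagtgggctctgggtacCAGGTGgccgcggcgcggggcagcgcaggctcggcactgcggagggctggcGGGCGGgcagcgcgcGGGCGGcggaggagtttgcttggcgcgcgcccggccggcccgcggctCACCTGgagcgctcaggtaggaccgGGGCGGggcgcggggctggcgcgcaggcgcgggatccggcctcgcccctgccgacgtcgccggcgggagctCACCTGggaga
Muc20, chr16:32797386-32797685, minus strand: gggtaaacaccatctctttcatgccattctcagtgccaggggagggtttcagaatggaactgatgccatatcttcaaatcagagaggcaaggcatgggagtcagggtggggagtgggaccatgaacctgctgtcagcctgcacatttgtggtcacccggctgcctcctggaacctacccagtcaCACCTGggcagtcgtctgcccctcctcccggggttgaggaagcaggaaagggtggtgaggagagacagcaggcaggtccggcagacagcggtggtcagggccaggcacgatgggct
B4galt5, chr2:167349129-167349428, minus strand: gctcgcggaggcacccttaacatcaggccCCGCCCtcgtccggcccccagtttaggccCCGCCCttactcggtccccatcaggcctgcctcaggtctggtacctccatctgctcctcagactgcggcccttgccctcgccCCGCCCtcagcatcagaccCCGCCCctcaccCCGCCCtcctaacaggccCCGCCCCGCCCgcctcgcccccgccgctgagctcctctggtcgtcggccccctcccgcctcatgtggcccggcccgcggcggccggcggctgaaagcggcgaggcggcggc
B4galt4, chr16:38742009-38742308, plus strand: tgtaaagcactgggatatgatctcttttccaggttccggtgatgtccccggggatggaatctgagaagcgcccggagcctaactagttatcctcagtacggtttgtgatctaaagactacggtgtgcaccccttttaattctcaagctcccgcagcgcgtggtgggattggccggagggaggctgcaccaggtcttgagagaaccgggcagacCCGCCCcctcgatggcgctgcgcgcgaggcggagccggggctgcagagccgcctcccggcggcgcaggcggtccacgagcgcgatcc

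The Galnt3 window held 3 E-boxes and 3 GC boxes and the Muc20 window 1 E-box. The B4galt5 window held 7 GC boxes, of which a pair overlap, and the B4galt4 window 1, with no E-box in either. The higher members had 12 such promoters, of which 4 held the E-box on either strand (those of Galnt3, Muc20, Muc1 and B3gnt3) and 8 the GC box. The lower members had 11, of which 3 held the E-box (those of Fut8 and St6galnac6) and 7 the GC box. These are promoters of 10 of the 11 higher and 7 of the 10 lower members; St6galnac2, Fut10, Galnt12 and St3gal2 were not matched. Over the 32851 RefSeq promoters of this length, 20.2% held the E-box and 35.7% the GC box. The TATA box TATAAA was in 1 promoter of a higher member, that of Muc1, and in 0 of the lower members, beside 13.6% of all promoters. The Grhl-type element AACCGGTT was in none of these promoters and in 0.146% of all. The motifs were chosen after the values were seen, and a match is a string of letters and not a shown site.

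Muc20 and Muc1, the 2 mucins past the filter, were both higher in null cells. Muc20 (chromosome 16, 32777419 to 32797435 of GRCm38), which encodes a membrane mucin, stood at 23.3 RPKM in null cells (5705 reads, 22.7 to 23.9) and 0.00961 RPKM in complemented cells (2 reads, 0.00116 to 0.0347). That was 2421-fold higher (interval 670 to 19999). Muc1 (chromosome 3, 89229057 to 89233381), the membrane mucin of glandular epithelium, stood at 7.28 RPKM in null cells and 1.76 RPKM in complemented cells, 4.13-fold higher (3.54 to 4.85). Muc1 was thus read in both libraries, and Muc20 almost only in null cells.

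Muc4, a membrane mucin known as a partner of the ErbB2 receptor, had 1070 reads in null cells and 2 in complemented cells, but at a mean under 1 RPKM it was not called. Muc4 and Muc20 lie tail to tail and share 627 exon bases on opposite strands in GENCODE. Spread evenly along Muc20, its 5705 reads in null cells would place 835 on those bases, beside 1070 reads of Muc4 in all. Without strand the reads of Muc4 and Muc20 on the shared bases cannot be told apart, which leaves the level of Muc4 in doubt. Muc15, another membrane mucin, had 60 reads in null cells and 0 in the other, at least 17.0-fold higher against a floor of 3 reads. Muc13 had 85 reads in null and 91 in complemented cells (ratio 0.793, interval 0.583 to 1.08).

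The gel-forming mucins all lay below the filter. Muc2, the main mucin of the intestine, had 42 reads in null cells and 2 in complemented cells (17.8-fold, interval 4.64 to 152). Null and complemented cells had 6 and 2 reads of Muc5b, 4 and 4 of Muc6, 0 and 2 of Muc5ac, and 0 in both of Muc19, which allows up to 3 reads. Summed over the 10 mucins the level was 33.1 RPKM in null cells and 2.39 RPKM in complemented cells. Muc20 took 70.2% of the null sum, and Muc1 took 73.8% of the complemented sum.

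The Galnt enzymes that start O-glycans went both ways around an abundant pair. Galnt2 and Galnt1, which are broadly expressed, led in both libraries, Galnt2 at 67.8 RPKM in null cells and 94.1 RPKM in complemented cells and Galnt1 at 34.8 RPKM in null against 30.2 RPKM in complemented cells. Neither reached 2-fold. Galnt3 (chromosome 2, 66082766 to 66124994), known for the O-glycan that protects the hormone Fgf23, stood at 24.2 RPKM in null cells (5107 reads, 23.5 to 24.9) and 0.0223 RPKM in complemented cells (4 reads, 0.00609 to 0.0572). Its ratio of 1084 (interval 423 to 3979) set it apart from the other 7 Galnt genes past the filter, none of which was called higher.

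Galnt7, Galnt12 and Galnt11 were lower in null cells. Galnt7 (chromosome 8, 57523828 to 57653032), which prefers peptides that already carry a sugar, stood at 2.01 RPKM in null cells and 13.3 RPKM in complemented cells, 6.62-fold lower (6.08 to 7.21). Galnt12 (chromosome 4, 47091909 to 47123070) had 2 reads in null cells and 222 in complemented cells, 131-fold lower (35.8 to 1086). Galnt11 (chromosome 5, 25221904 to 25265918) was closest to the 2-fold rule, at 11.04 RPKM in null against 24.7 RPKM in complemented cells (2.24-fold lower, 2.12 to 2.37) and a log2 difference of -1.10, and lay within it at -0.88 under TMM scaling. Under that scaling Galnt12 had a mean under 1 RPKM and was not called. The exons of Galnt11 overlap 306 bases of E130116L18Rik on the opposite strand, so without strand their reads may be mixed.

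Galnt10 at 8.83 RPKM in null against 6.04 RPKM in complemented cells and Galnt4 at 3.32 RPKM in null against 5.71 RPKM in complemented cells lay within 2-fold, and the exons of Galnt4 overlap those of Poc1b. Of the 10 Galnt genes below the filter, Galnt16 had 0 reads in null and 26 in complemented cells. It was at least 10.2-fold lower in null cells against a floor of 3 reads. Galnt13 had 7 in null against 20 in complemented cells (3.37-fold lower, 1.37 to 9.42). Galnt15 had 43 in null against 72 in complemented cells (1.97-fold lower, 1.33 to 2.95). Galntl6 had 9 in null against 12 in complemented cells. Galnt5, Galnt6, Galnt9, Galnt14, Galnt18 and Galntl5 had at most 10 reads in either. The summed Galnt level was 153 RPKM in null cells and 177 RPKM in complemented cells, a log2 ratio of -0.22 that became 0.0092 under TMM scaling. Galnt3 made up 15.9% of the null sum and 0.0126% of the complemented sum, while Galnt7 and Galnt11 made up 1.32% and 7.24% of the null sum, against 7.50% and 14.0% of the complemented sum.

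**Figure D2:**
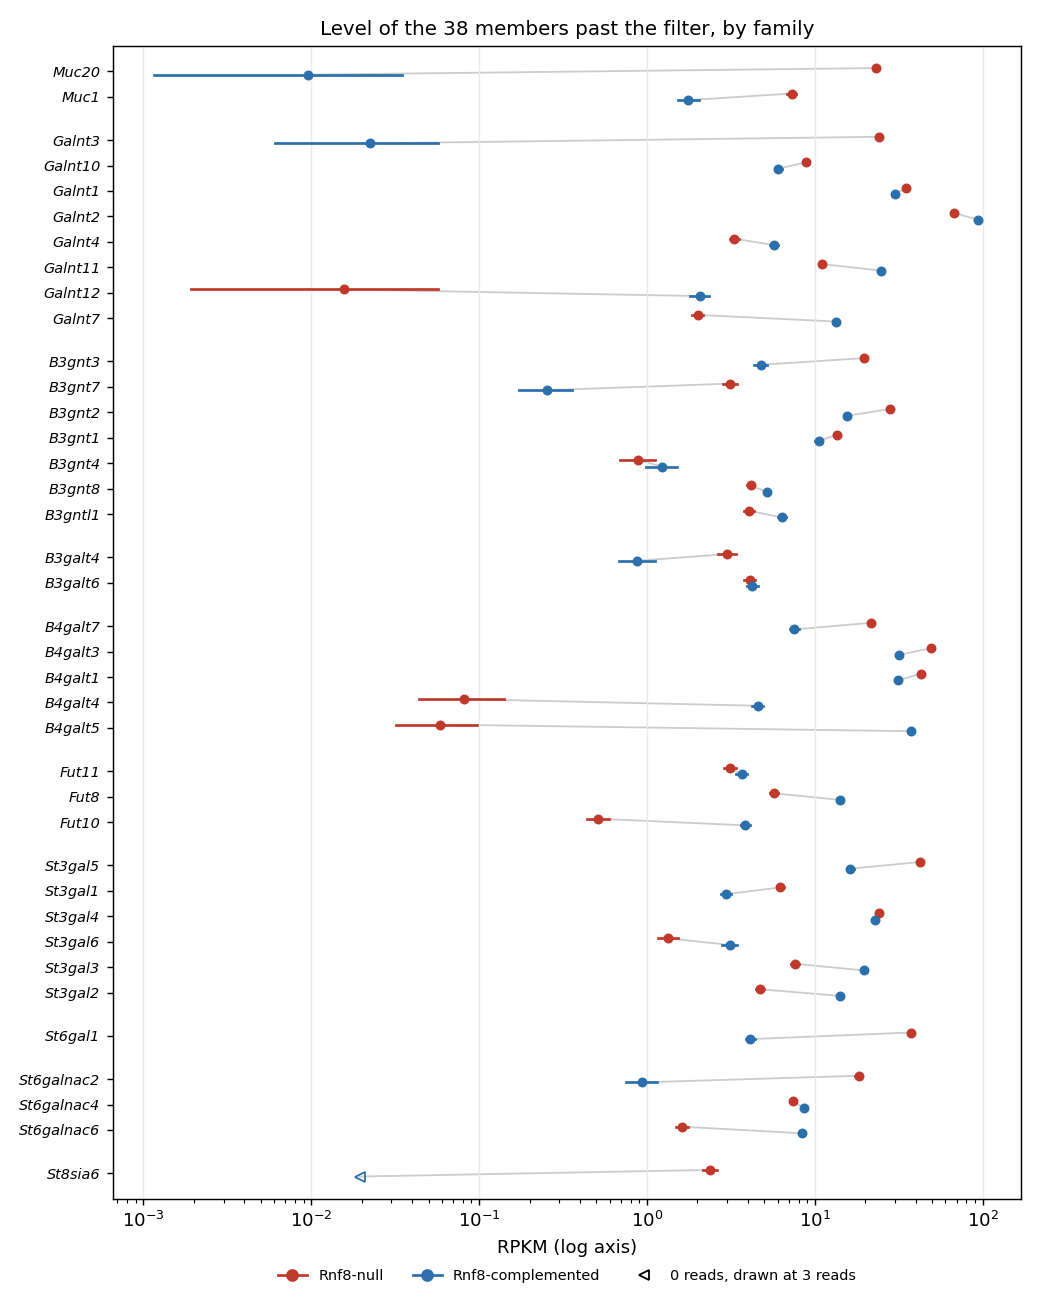
RPKM on a log axis of the 38 members past the filter in null (red) and complemented cells (blue), grouped by family and ordered within it by difference, with exact 95% counting intervals as bars and a triangle at 3 reads where a library had 0. Most points lie between 1 and 100 RPKM, and Muc20, Galnt3, Galnt12, B4galt4, B4galt5 and St8sia6 lie under 0.1 RPKM in one of the libraries.

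Among the B3gnt enzymes, most of which add N-acetylglucosamine to galactose, B3gnt3 and B3gnt7 were higher in null cells and none was lower. B3gnt3 (chromosome 8, 71690756 to 71701789), which extends the galactose branch of O-glycans, stood at 19.6 RPKM in null cells and 4.75 RPKM in complemented cells, 4.13-fold higher (3.75 to 4.55). B3gnt7 (chromosome 1, 86302832 to 86307305), an enzyme of keratan sulphate, stood at 3.14 RPKM in null against 0.254 RPKM in complemented cells, 12.4-fold higher (8.63 to 18.3). B3gnt2, the main enzyme of long N-acetyllactosamine chains, led the family at 28.0 RPKM in null against 15.6 RPKM in complemented cells and lay within 2-fold (log2 difference 0.80), but reached 1.02 under TMM scaling.

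B3gnt8 (4.14 RPKM in null against 5.195 RPKM in complemented cells), B3gntl1 (4.07 RPKM in null against 6.39 RPKM in complemented cells) and B3gnt4 (0.884 RPKM in null against 1.23 RPKM in complemented cells) lay within 2-fold, and each overlaps exons of another coding gene, 1326 bases of Diablo in the case of B3gnt4. The row named B3gnt1 stood at 13.6 RPKM in null against 10.5 RPKM in complemented cells. That symbol is an older name of both B3gnt2 and B4gat1 in RefSeq, so it is given no role or position. B3gnt9 had 165 reads in null cells and 270 in complemented cells (1.93-fold lower, 1.58 to 2.35). B3gnt6, which makes a core of intestinal O-glycans, had 26 reads in null against 16 in complemented cells, and B3gnt5, which starts a series of glycolipids, had 0 in both.

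Among galactosyltransferases of the B4galt family B4galt5 and B4galt4 were lower and B4galt7 higher. B4galt5 (chromosome 2, 167298444 to 167349183), which with B4galt6 makes lactosylceramide, stood at 0.0582 RPKM in null cells (14 reads, 0.0318 to 0.0976) and 37.4 RPKM in complemented cells (7643 reads, 36.6 to 38.3). It was 643-fold lower in null cells (383 to 1177). B4galt6 had 9 reads in null cells and 1 in complemented cells, so both lactosylceramide synthases together had 23 reads in null against 7644 in complemented cells. B4galt4 (chromosome 16, 38742264 to 38769049) was also lower, with 13 reads in null against 616 in complemented cells (55.8-fold, 32.4 to 105).

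B4galt7 (chromosome 13, 55599896 to 55610443), which adds the first galactose of the linker that joins glycosaminoglycans to proteoglycans, was higher at 21.6 RPKM in null against 7.55 RPKM in complemented cells (2.86-fold, 2.67 to 3.08). B4galt1, which makes N-acetyllactosamine and, with lactalbumin, the milk sugar lactose, stood at 42.9 RPKM in null against 31.3 RPKM in complemented cells, and B4galt3 at 49.1 RPKM in null against 31.7 RPKM in complemented cells, both within 2-fold. The exons of B4galt3 overlap 791 bases of Ppox. B4galt2 lay below the filter with 36 reads in null against 148 in complemented cells (4.84-fold lower in null cells, 3.35 to 7.18). The summed B4galt level was 114 RPKM in null cells and 113 RPKM in complemented cells. B4galt5 took 0.0511% of the null and 33.0% of the complemented sum, and B4galt3 took 43.1% of the null and 28.0% of the complemented sum.

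In the B3galt family B3galt4 (chromosome 17, 33949909 to 33951488), which adds galactose to gangliosides, was higher at 3.01 RPKM in null against 0.874 RPKM in complemented cells (3.45-fold, 2.63 to 4.57). B3galt6, which acts after B4galt7 in the proteoglycan linker, lay within 2-fold at 4.10 RPKM in null against 4.24 RPKM in complemented cells. B3galt2 had 130 reads in null against 186 in complemented cells (1.69-fold lower, 1.34 to 2.13). B3galt5, an enzyme of type-one chains in digestive epithelium, had 14 reads in null against 0 in complemented cells and B3galt1 had 4 in null against 0 in complemented cells.

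**Figure D3:**
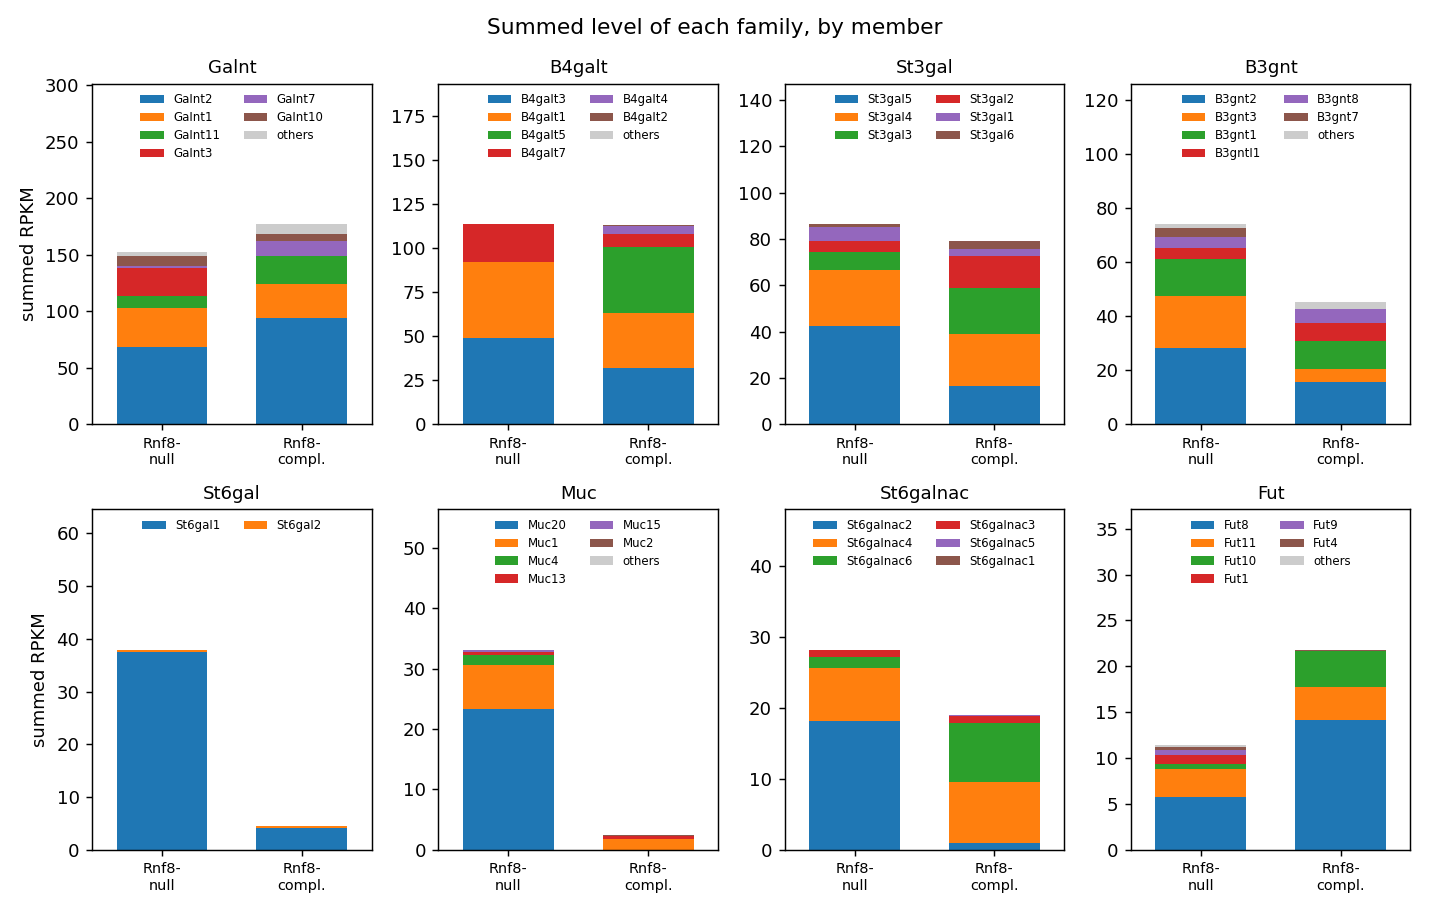
Summed RPKM of 8 families in Rnf8-null and Rnf8-complemented (compl.) cells, stacked by member with up to 6 members named per family. The B4galt bars are of nearly equal height at 114 and 113 RPKM but differ in make-up, and the St6gal and Muc bars are the most unequal, at 37.96 RPKM in null against 4.497 RPKM in complemented cells and 33.1 RPKM in null against 2.39 RPKM in complemented cells.

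Fucosyltransferases past the filter were lower in null cells or within 2-fold. Fut8 (chromosome 12, 77238125 to 77476338), the only enzyme that fucosylates the core of N-glycans, stood at 5.72 RPKM in null cells and 14.1 RPKM in complemented cells, 2.47-fold lower (2.33 to 2.62), and lay within the 2-fold rule at -0.97 under TMM scaling. Fut10 (chromosome 8, 31187331 to 31261738) stood at 0.513 RPKM in null against 3.86 RPKM in complemented cells, 7.51-fold lower (6.40 to 8.86). Fut11 stood at 3.12 RPKM in null against 3.66 RPKM in complemented cells and lay within 2-fold.

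The fucosyltransferases that act on chain ends all lay below the filter, with more reads in null cells. Fut1 and Fut2 make the H antigen, the base of the blood group ABO structures. They had 262 and 14 reads in null cells, against 10 and 3 in complemented cells. For Fut1 that was a ratio of 22.2 (11.9 to 46.9) and for Fut2 of 3.96 (1.11 to 21.5). Fut4, Fut7 and Fut9 make Lewis x structures. Fut9 had 423 reads in null cells and 0 in complemented cells, at least 120-fold higher against a floor of 3 reads. Fut4 had 68 reads in null against 8 in complemented cells (7.22-fold, 3.46 to 17.4), and Fut7 had 22 in null against 9 in complemented cells, with an interval that spans equality (0.918 to 5.12). Together these 5 stood at about the level of rare transcripts, at 1.02 RPKM for Fut1 plus Fut2 and 1.07 RPKM for Fut4, Fut7 and Fut9 in null cells, against 0.0623 and 0.112 RPKM in complemented cells. The pseudogene Fut4-ps1 had 0 reads in null against 1 in complemented cells.

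Sialyltransferases of the St3gal family were all past the filter and divided. St3gal5 (chromosome 6, 72097592 to 72154571), which makes the first ganglioside from lactosylceramide, was higher at 42.5 RPKM in null against 16.3 RPKM in complemented cells (2.61-fold, 2.48 to 2.74). St3gal2 (chromosome 8, 110919922 to 110972480), which caps O-glycans and gangliosides, was lower at 4.73 RPKM in null against 14.1 RPKM in complemented cells (2.98-fold, 2.79 to 3.18). St3gal3 (chromosome 4, 117932154 to 118134914), which caps N-acetyllactosamine, was lower at 7.61 RPKM in null against 19.7 RPKM in complemented cells (2.58-fold, 2.43 to 2.75).

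St3gal4, which also caps N-acetyllactosamine, lay within 2-fold at 24.2 RPKM in null against 22.8 RPKM in complemented cells. St3gal1, which caps the galactose of O-glycans, stood at 6.25 RPKM in null against 2.97 RPKM in complemented cells, a log2 difference of 0.87 that reached 1.05 under TMM scaling. St3gal6 stood at 1.34 RPKM in null against 3.12 RPKM in complemented cells within 2-fold, and 1603 of its exon bases are shared with Dcbld2. The leading St3gal gene was therefore St3gal5 in null cells, with 49.1% of the summed level, and St3gal4 in complemented cells, with 28.8%.

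Sialyltransferases that link sialic acid to the sixth carbon were led by St6gal1 in null cells. St6gal1 (chromosome 16, 23224740 to 23360350), the main such enzyme of N-glycans, stood at 37.4 RPKM in null cells (36.7 to 38.1) and 4.12 RPKM in complemented cells (3.87 to 4.39), 9.08-fold higher (8.50 to 9.70). St6galnac2, which acts on O-glycans, stood at 18.2 RPKM in null against 0.931 RPKM in complemented cells, 19.6-fold higher (15.9 to 24.4). St6galnac6 (chromosome 2, 32599709 to 32620806), known for sialylating gangliosides, was lower at 1.61 RPKM in null against 8.34 RPKM in complemented cells (5.18-fold, 4.74 to 5.66).

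St6galnac4 lay within 2-fold at 7.37 RPKM in null against 8.60 RPKM in complemented cells. It took 45.2% of the summed St6galnac level in complemented cells, where St6galnac6 took 43.8%, whereas St6galnac2 took 64.5% of the null sum. St6gal2 (107 reads in null against 62 in complemented cells), St6galnac3 (218 in null against 184 in complemented cells), St6galnac5 (6 in null against 16 in complemented cells) and St6galnac1 (5 in null against 3 in complemented cells) lay below the filter.

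Of the St8sia enzymes, which add sialic acid to sialic acid, only St8sia6 was past the filter. St8sia6 (chromosome 2, 13651021 to 13794064), which acts on O-glycans, had 428 reads in null cells (2.37 RPKM, 2.15 to 2.60) and 0 in complemented cells, at least 121-fold higher against a floor of 3 reads. St8sia1, the synthase of disialogangliosides, had 6 reads in null against 2 in complemented cells. The polysialic acid synthases St8sia2 and St8sia4 had 0 in both and 1 in each, and St8sia3 and St8sia5 had 0 in both. The antisense gene St8sia3os had 2 reads in each and overlaps St8sia3.

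The genes around the members were described from 8 lists of glycan genes, set beside the 14.8% higher and 15.9% lower of all genes. Of 106 listed genes that were in the data 78 passed the filter, and of these 14 were higher (17.9%) and 12 lower (15.4%), shares near those of all genes. The sialic acid supply was higher in part. Gne, which starts sialic acid synthesis, stood at 11.2 RPKM in null against 3.72 RPKM in complemented cells (3.002-fold, 2.80 to 3.22), and Cmas, which activates sialic acid for transfer, at 75.0 RPKM in null against 12.0 RPKM in complemented cells (6.25-fold, 5.86 to 6.68). Nans at 14.9 RPKM in null against 11.1 RPKM in complemented cells, Nanp at 8.74 RPKM in null against 9.56 RPKM in complemented cells and the Golgi carrier Slc35a1 at 19.6 RPKM in null against 20.1 RPKM in complemented cells lay within 2-fold. Neu1, the lysosomal sialidase, was higher at 54.1 RPKM in null against 6.53 RPKM in complemented cells.

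Over the whole sugar nucleotide list 4 of 22 were higher and 3 lower, with a median log2 difference of 0.07. Pmm1, an enzyme of mannose phosphate, was also higher (55.2 RPKM in null against 17.1 RPKM in complemented cells). Lower were Galk1 (59.6 RPKM in null against 138 RPKM in complemented cells), Galk2 (3.68 RPKM in null against 17.1 RPKM in complemented cells) and Fpgt, a salvage enzyme of fucose with 0 reads in null cells and 896 in complemented cells. All 10 Golgi sugar nucleotide transporters past the filter lay within 2-fold, the farthest being Slc35a5 at -0.82.

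The list of O-glycan core and chain extension genes had 3 higher and 3 lower of 11. It also holds glycolipid enzymes such as B4galnt1 and A4galt, so these counts are not of O-glycan genes alone. C1galt1, which adds galactose to the sugar that Galnt enzymes lay down, stood at 17.5 RPKM in null against 5.26 RPKM in complemented cells (3.32-fold, 3.02 to 3.66), while its chaperone gene C1galt1c1 stood at 15.4 RPKM in null against 17.1 RPKM in complemented cells. B4galnt1, which elongates gangliosides, stood at 33.2 RPKM in null against 2.84 RPKM in complemented cells (11.7-fold, 10.7 to 12.7), and B4galnt3 was also higher. B4galnt4 (3 reads in null against 1632 in complemented cells), B4galnt2 (0.382 RPKM in null against 7.63 RPKM in complemented cells) and A4galt, the gene of globotriaosylceramide synthase with 4 reads in null against 222 in complemented cells, were lower. Of 11 N-glycan genes Mgat4a was higher (11.1 RPKM in null against 1.61 RPKM in complemented cells), and Man1c1 (2.04 RPKM in null against 9.96 RPKM in complemented cells), Mgat3 (0.621 RPKM in null against 3.86 RPKM in complemented cells) and Mgat1 (19.1 RPKM in null against 39.7 RPKM in complemented cells) were lower.

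Along the ganglioside route the members and listed genes went both ways. Ugcg, which makes the glucosylceramide that B4galt5 and B4galt6 use, stood at 3.47 RPKM in null against 10.02 RPKM in complemented cells (2.89-fold lower, 2.66 to 3.14). B4galt5 was lower as given above. Of the enzymes described here that act after it on glycolipids, St3gal5, B4galnt1 and B3galt4 were higher in null cells, and St3gal2, St6galnac6 and A4galt were lower. Gal3st1, which sulphates galactosylceramide and lactosylceramide, was higher at 18.8 RPKM in null against 0.222 RPKM in complemented cells (85.0-fold, 56.0 to 136). Levels of lipids and of enzyme activity were not measured.

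**Figure D4:**
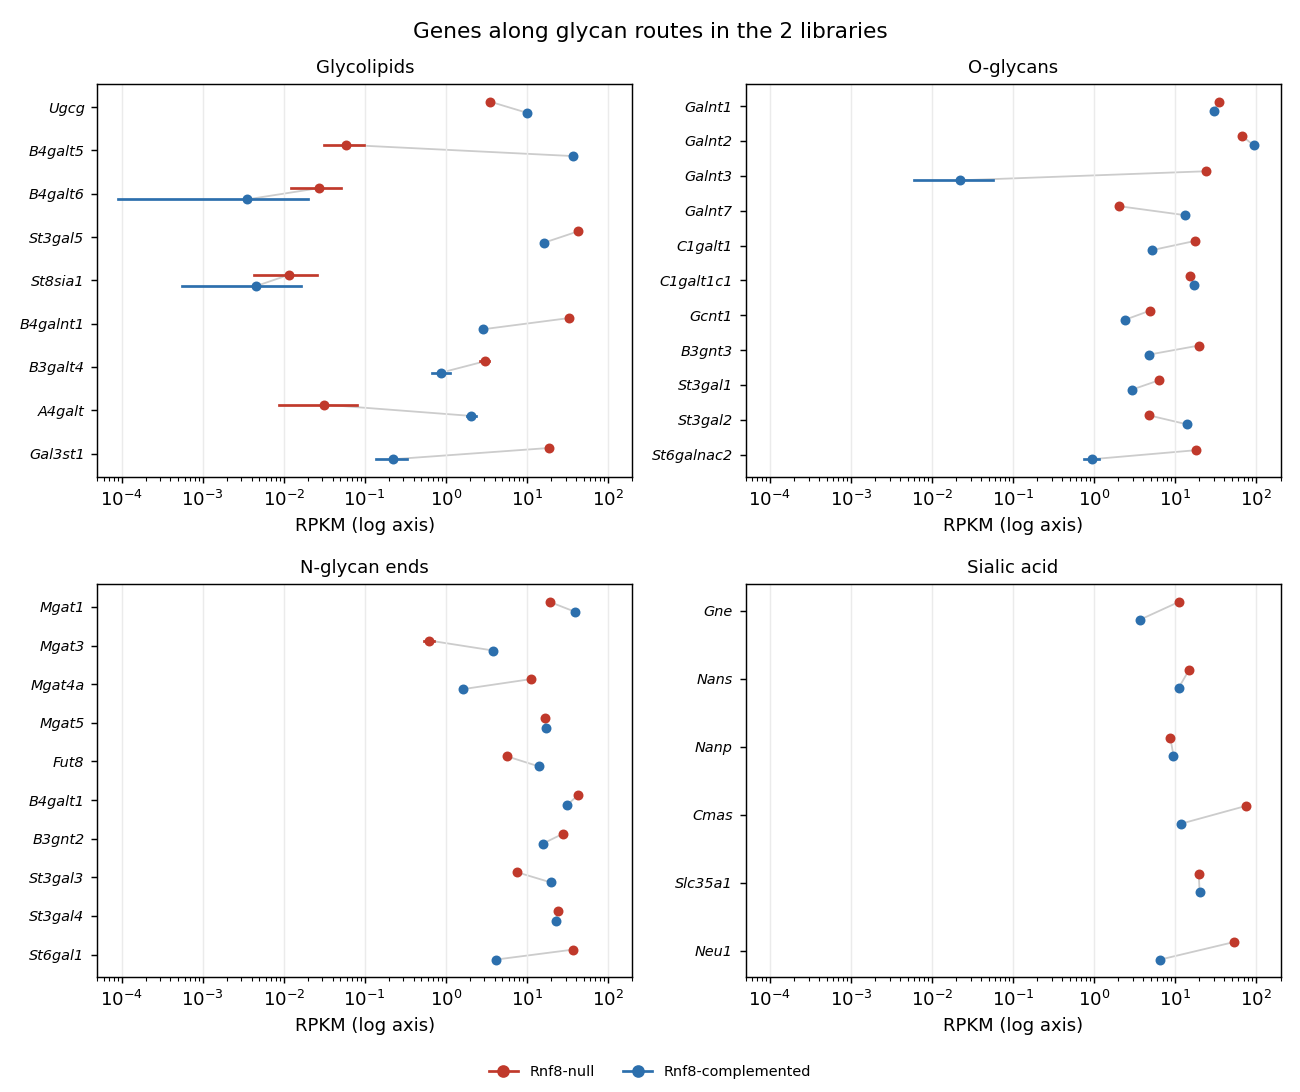
RPKM on a log axis of genes of 4 routes (glycolipids, O-glycans, N-glycan ends, sialic acid) in null (red) and complemented cells (blue), with exact 95% counting intervals as bars. In the glycolipid panel Ugcg, B4galt5 and A4galt lie lower in null cells and St3gal5, B4galnt1, B3galt4 and Gal3st1 higher; in the sialic acid panel Gne, Cmas and Neu1 lie higher.

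The list of sugar-starting enzymes also holds genes that extend a first sugar, such as Pomgnt1. Of its 11 genes past the filter 2 were lower, Ugcg and Poglut1 (20.1 RPKM in null against 49.1 RPKM in complemented cells), and 0 higher. Of 13 glycan sulphotransferases only 3 passed the filter, Gal3st1, Gal3st4 (0.730 RPKM in null against 1.65 RPKM in complemented cells, within 2-fold) and Chst7, which was lower with 3 reads in null against 478 in complemented cells. Of 3 sialidases and fucosidases past the filter Neu1 was higher and both fucosidases lay within 2-fold.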

How the data were processed

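The members and lists were chosen with earlier results of these data known. The table deposited by the authors holds raw counts of reads per gene, not normalized, and RPKM values for the same genes and libraries, per the file headers. For 20176 genes the count and RPKM gave a gene length within 1.35e-08 bases of a whole number, so RPKM here is scaled to the total of counted reads. The submitters' processing notes list the aligner STAR 2.4.0f1, DESeq2, bedtools and SAMtools 0.1.18, without saying what each did, and the build mm10 (GRCm38). How reads were counted, on which annotation and with or without strand is not given in the sources used here, so reads of overlapping or near-identical genes may be mixed.

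Columns were matched by sample title, and 0 other columns were left out. RPKM was the main unit, with the counts used for intervals and scaling. A log2 difference with 1 RPKM added understates the difference of low genes, so ratios are of reads per library total. Poisson intervals are given for levels and conditional binomial (Clopper-Pearson) intervals for ratios. These cover counting error only and can be too narrow, since reads were not collapsed to molecules by any identifier the labels name. At these depths 3 reads on 2000 bases stand at 0.0262 RPKM in null and 0.0309 RPKM in complemented cells. Values with intervals are given for members past the 2-fold rule and for up to 4 genes of each list. Ratio intervals are also given for some members below the filter, such as Muc2, Muc13, Fut1 and B4galt2, which were not called. Which of those members got an interval was not set by the 2-fold rule. Other members are given by level or reads. Any further genes named were picked with their levels already known. Gene positions come from GENCODE M21 and promoters from RefSeq, both on GRCm38; 78 members had a position, and St6galnac2 and B3gnt1 had none. TMM factors came from edgeR 4.0.16 and size factors from DESeq2 1.42.0 in R 4.3.3; other steps used Python 3.11.15 and scipy 1.17.1, and were tested on simulated data. The values of 1 listed gene, which is part of the list counts, are not reported here.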

Additional observations from a re-analysis of the deposited data

How the results depend on the processing

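No paired analysis was possible because each form had 1 library, and no library could be left out. Besides the 11 higher and 10 lower members and the 14 higher and 12 lower listed genes, 9 alternatives and 1 chosen after seeing the data were run. With 5 RPKM added in place of 1, 7 members were higher and 3 lower and 7 listed genes lower; with a mean of at least 5 RPKM, 7 members were higher and 6 lower and 6 listed genes lower; under a 4-fold rule, 4 members were higher and 3 lower and 7 listed genes higher and 4 lower. All 3 are stricter by construction. With 5 RPKM added, 18.4% of members past the filter were higher and 7.89% lower, against 9.66% and 8.05% of all genes past it. The share of lower members was then near that of all genes. With a mean of at least 5 RPKM the shares were 30.4% and 26.1%, against 13.9% and 14.1%. Under the 4-fold rule they were 10.5% and 7.89%, against 7.77% and 5.05%. TMM scaling moved the median of all genes past the filter from -0.17 to 0.03 and gave 13 higher and 7 lower members. DESeq2 size factors gave the same counts. This factor, which takes in depth, was 1 for both libraries, so reads were compared without division by their totals. The median of all genes past the filter was then 0.04, near that under TMM. All 11 higher members remained among those 13, joined by B3gnt2 and St3gal1. The summed Galnt log2 ratio of -0.22 became 0.0092 with TMM and 0.020 with DESeq2 size factors, and that of B4galt, 0.0072, became -0.026 with totals that leave out the 10 largest genes. Without the 16 members whose exons overlap another coding gene by at least 100 bases, 10 of 30 past the filter were higher and 9 lower. These were 33.3% and 30%, against 14.8% and 15.9% of all genes past it, from which overlapping genes were not removed. No single member called in either direction changed its direction under the 2 pseudocounts and 3 scalings. Members under about 10 reads in a library are limited by depth.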

Other observations

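Galectins, proteins that bind the galactose ends these enzymes build, were higher in null cells in 4 of 7 cases past the filter and lower in 0. These were 57.1% and 0%, against 14.8% and 15.9% of all genes past the filter. The other 3 lay within 2-fold, the lowest at -0.79. The median log2 difference was 1.17 beside -0.17 over all genes. Of the 8 lists this one had the largest share higher, and over all 8 together that share was 17.9%. Lgals7, a galectin of stratified epithelia, had 1480 reads in null and 10 in complemented cells (126-fold, interval 68.1 to 263). Lgals9 stood at 184 RPKM in null against 39.0 RPKM in complemented cells, Lgals3 at 623 RPKM in null against 276 RPKM in complemented cells and Lgals2 at 11.4 RPKM in null against 3.02 RPKM in complemented cells. Lgals1 was abundant in both, at 729 RPKM in null against 993 RPKM in complemented cells. The 11 epithelial markers were higher in the same library, and their part in this was not tested.

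St6galnac4 and St6galnac6 lie 11 bases apart on chromosome 2, with log2 differences of -0.20 and -1.84. This pair was chosen after its values were seen.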
